A study of Mus musculus with 35 samples.

Results

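The collagen genes were read in RNA-seq libraries of mouse cranial neural crest with and without a conditional knockout of UTX, the X-linked histone H3K27 demethylase encoded by Kdm6a. Members were all genes of the count table whose symbol has the form Col, a number, the letter a and a second number. This rule gave 44 of 23366 genes, of which 41 passed a filter on low counts that kept 14521 genes for testing. Female knockouts (fko) were Utx fl/fl with Wnt1-Cre, male knockouts (mko) were Utx fl/y with Wnt1-Cre, and the wild type (wt) was male and carried Wnt1-Cre as well. Each genotype had 2 libraries at E12.5, named fko1, fko2, mko1, mko2, wt1 and wt2. All 6 came from cells that excluded DAPI and carried the Rosa-Tomato reporter, which Wnt1-Cre switches on in the neural crest lineage and in part of the dorsal neural tube, sorted from tissue dissected rostral to the ear vesicle, per the labels' protocols. Sex and genotype cannot be told apart between female knockouts and wild type. The mean of both knockouts shares this limit in part, as it includes the female knockouts. The labels do not say whether libraries came from separate embryos, so p-values measure the spread between libraries, which may be technical.

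Collagens are secreted or membrane proteins in which 3 chains wind into a triple helix. Fibrillar collagens build the banded fibrils of skin, bone and cartilage. Network collagens form the meshwork of basement membranes and other sheets, FACIT collagens sit on the surface of fibrils, and transmembrane collagens stay anchored in the plasma membrane. Much of the facial skeleton and its connective tissue is made by cranial neural crest, and these cells lay down collagen as they condense into cartilage and bone.

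Between 14513993 and 16350892 reads were assigned to genes in each library. Kdm6a had 52.9 and 62.4 CPM (counts scaled to the depth of the library) in female knockouts, 40.5 and 31.9 CPM in male knockouts and 45.6 and 51.5 CPM in wild type. A deletion of part of the gene is not checked by reads summed along all of it. The ribosomal precursor Rn45s was at 35305 and 29815 CPM in female knockouts, 50820 and 32374 CPM in male knockouts and 9028 and 3559 CPM in wild type. The 6 libraries also differed in the share of reads assigned to no gene. That share was 27.5% in fko2, 27.6% in mko1 and 27.8% in wt2, called the high set here, against 21.3% to 21.96% in fko1, mko2 and wt1, called the low set. Each genotype therefore had 1 library in each set. Endothelial markers summed to between 12.7 and 18.7 CPM in every library and leukocyte markers to between 4.50 and 8.93 CPM, while markers of cranial mesenchyme summed to between 1414 and 1835 CPM.

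Collagens took a small share of the reads, and a few genes accounted for most of it. Collagen reads were 0.727% of reads on genes in fko1, 0.893% in fko2, 0.933% in mko1, 0.733% in mko2, 0.934% in wt1 and 1.01% in wt2. By this share both low-set knockout libraries lay lowest, whereas the high-set knockout libraries lay just under wt1. Summed in CPM, which used TMM library sizes, collagens were highest in mko1 at 9537, against 9425 in wt2, 9003 in wt1 and 8889 in fko2. The low-set knockout libraries were again lowest, at 7733 in fko1 and 7586 in mko2. Col3a1, a fibrillar collagen of loose connective tissue, supplied 19.8% of all collagen reads, and Col1a2 and Col1a1, the chains of type I collagen, supplied 17.2% and 10.7%. With Col2a1, the chain of cartilage type II collagen, which supplied 8.78%, these genes held 56.5% of collagen reads. At the other end, Col10a1, the collagen of hypertrophic cartilage, had at most 2 reads in any library, Col4a3 at most 4 and Col6a5 at most 9, and these were the 3 members left untested.

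**Figure D1:**
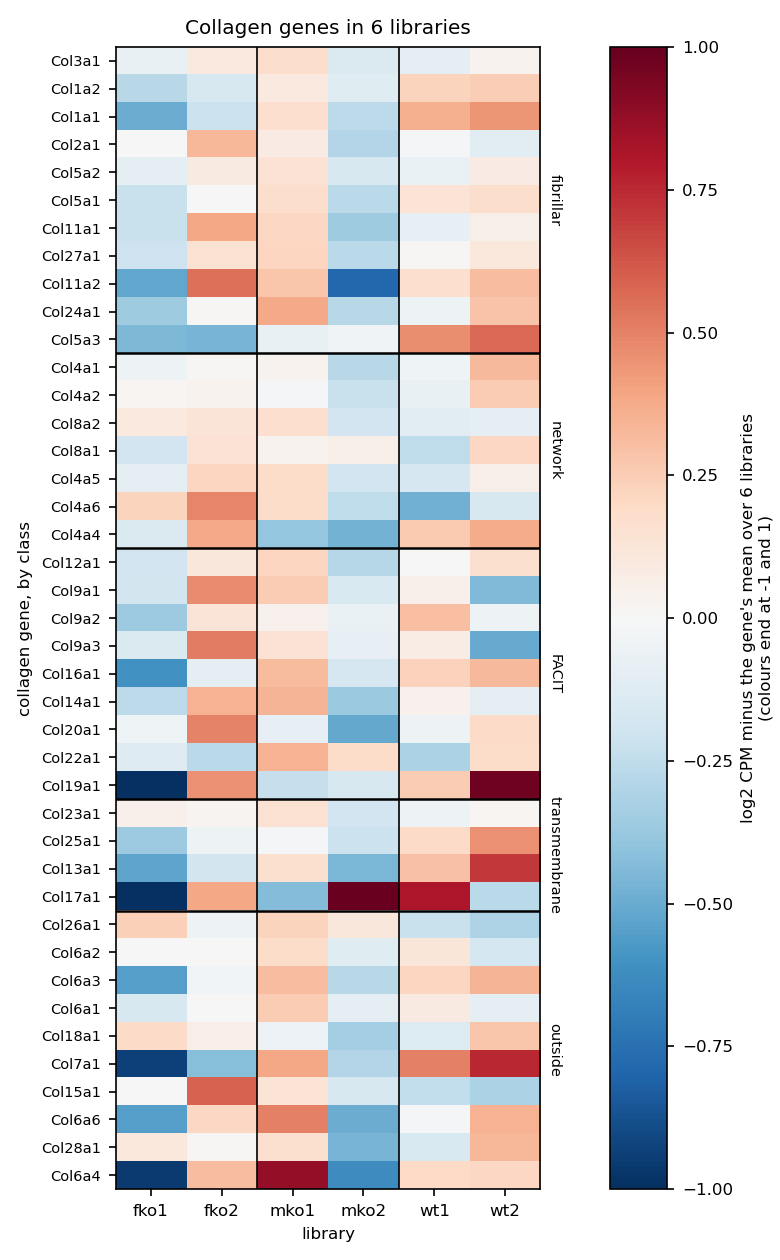
Log2 CPM of the 41 tested collagen genes (rows, grouped by class and ordered by mean level within each) in the 6 libraries (columns), each shown as its difference from the gene's own mean. The low-set knockout libraries fko1 and mko2 are mostly blue, and Col7a1, Col1a1, Col25a1 and Col13a1 are red in both wild-type libraries.

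Across the family, 1 collagen passed as lower in the mean of both knockouts and none passed as higher in any comparison. In the comparison of the mean of both knockouts with wild type, 1 of 41 tested collagens passed edgeR's quasi-likelihood test, or 2.44%, against 5.11% of all genes tested. None passed in female knockouts against wild type, where 1.12% of all genes did, none in male knockouts against wild type, where 2.34% did, and none between female and male knockouts, where 0.0344% did. At an unadjusted p under 0.05 in edgeR's test there were 11 collagens (26.8%) in female knockouts against wild type, where 19.6% of all genes were, and 4 (9.76%) in male knockouts, where 20.2% were. In the mean of both there were 8 (19.5%), where 26.1% of all genes were, and between the knockouts 1 (2.44%), where 1.72% were. DESeq2 called 2 collagens in female knockouts and 3.46% of all genes, 0 in male knockouts and 5.26%, 3 in the mean of both and 7.64%, and 0 between the knockouts and 0.0195%. The fold changes leaned slightly downward. Their median on the log2 scale was -0.08 in female and -0.07 in male knockouts against wild type and -0.12 in the mean of both, against 0.01 for all genes in each of these comparisons, and 25 of 41 were negative in the mean of both. Female and male knockouts share the same wild-type libraries, so their values are given side by side and not as independent evidence.

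Col7a1 encodes the chain of type VII collagen, which forms the anchoring fibrils that tie basement membranes to the tissue beneath. It was the collagen that passed as lower in the mean of both knockouts. Its level was 13.0 and 18.5 CPM in female knockouts, 32.6 and 20.3 CPM in male knockouts and 35.4 and 42.1 CPM in wild type. Every knockout library lay below both wild-type libraries, with mko1 close to wt1. The log2 fold change was -0.93 (SE 0.21) in the mean of both knockouts, with an adjusted p of 0.0387 in edgeR's test. Against wild type, it was -1.30 (SE 0.25, adjusted p = 0.0513) in female knockouts and -0.55 (SE 0.24, adjusted p = 0.246) in male knockouts by the same test. The difference between female and male knockouts was -0.74, with an unadjusted p of 0.0160 and an adjusted p of 1.00 in edgeR's test. The call in the mean of both knockouts was lost without wt2 (adjusted p = 0.139) and without mko2 (adjusted p = 0.0887), and without a filter on low counts (adjusted p = 0.0515), while the log2 fold change stayed between -1.11 and -0.77 over the leave-one-out fits. Each such fit, here and in the values that follow, leaves 1 genotype with a single library, which is assumed to vary like the others. Col7a1 is best known from epidermal keratinocytes. Epithelial markers summed over 10 genes to 18.0 and 19.4 CPM in female knockouts, 20.8 and 22.2 CPM in male knockouts and 22.4 and 14.2 CPM in wild type, and 0 of 9 tested passed. Of those 9, 4 had positive and 5 negative log2 fold changes in the mean of both. Among genes of basal keratinocytes, Krt5 was at 0.979 and 1.36 CPM in female knockouts, 1.16 and 1.39 CPM in male knockouts and 0.760 and 0.576 CPM in wild type. Trp63 was at 0.653 and 0.646 CPM in female knockouts, 0.409 and 0.316 CPM in male knockouts and 1.01 and 0.896 CPM in wild type. This order was the opposite of that of Krt5. Krt14 was at 0.457 and 0.711 CPM in female knockouts, 0.681 and 0.823 CPM in male knockouts and 0.634 and 0 CPM in wild type. Krt15, left untested, had the order of Krt5. It was at 0.392 and 0.388 CPM in female knockouts, 0.477 and 0.443 CPM in male knockouts and 0.253 and 0.192 CPM in wild type. Each of these genes had few reads. The part of epithelial cells in the values of Col7a1 was not tested. In bulk RNA, fewer cells of a type and less RNA per cell cannot be told apart.

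In all, 6 of 41 collagens (14.6%) had all 4 knockout libraries below both wild-type libraries, against 20.1% of all genes tested. They were Col7a1, Col1a1, Col1a2, Col5a3, Col25a1 and Col13a1. The opposite order, all knockout libraries above both wild-type libraries, was found for Col26a1 and Col15a1, 4.88% of the collagens against 18.8% of all genes. Neither share exceeded its background. The 250 bases upstream of the RefSeq start are shown for the 5 of these 6 lower collagens that have an entry, to set the promoters of genes with the same order of libraries side by side. They are from build GRCm38.p6, 5′ to 3′ on the strand of the gene, with capitals marking CCAAT (the CCAAT box), the letters TATAA at the core of a TATA box, and the core GGGCGG of a GC box, each on either strand.
Col7a1, chr9:108953336-108953585, plus strand: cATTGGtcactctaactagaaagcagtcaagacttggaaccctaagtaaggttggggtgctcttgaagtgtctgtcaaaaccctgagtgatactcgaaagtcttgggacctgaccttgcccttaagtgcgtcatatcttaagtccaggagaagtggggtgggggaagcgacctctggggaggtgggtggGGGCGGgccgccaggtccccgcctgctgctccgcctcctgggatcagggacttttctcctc
Col1a2, chr6:4505368-4505617, plus strand: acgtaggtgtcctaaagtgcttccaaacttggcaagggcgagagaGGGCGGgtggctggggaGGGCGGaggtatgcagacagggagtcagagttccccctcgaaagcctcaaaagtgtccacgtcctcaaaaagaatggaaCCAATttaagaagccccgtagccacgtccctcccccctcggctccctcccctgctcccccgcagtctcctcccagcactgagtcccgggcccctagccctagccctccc
Col25a1, chr3:130180595-130180844, plus strand: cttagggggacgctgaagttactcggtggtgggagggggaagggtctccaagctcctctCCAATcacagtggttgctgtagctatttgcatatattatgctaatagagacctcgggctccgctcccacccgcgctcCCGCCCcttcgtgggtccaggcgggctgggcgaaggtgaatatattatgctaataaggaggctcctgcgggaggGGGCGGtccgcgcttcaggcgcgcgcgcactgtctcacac
Col5a3, chr9:20815068-20815317, minus strand: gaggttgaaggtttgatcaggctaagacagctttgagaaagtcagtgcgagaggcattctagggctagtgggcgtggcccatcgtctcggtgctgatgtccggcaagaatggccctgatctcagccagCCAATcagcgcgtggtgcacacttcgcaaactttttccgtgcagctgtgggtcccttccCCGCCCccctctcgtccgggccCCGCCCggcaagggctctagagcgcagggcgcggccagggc
Col13a1, chr10:61979109-61979358, minus strand: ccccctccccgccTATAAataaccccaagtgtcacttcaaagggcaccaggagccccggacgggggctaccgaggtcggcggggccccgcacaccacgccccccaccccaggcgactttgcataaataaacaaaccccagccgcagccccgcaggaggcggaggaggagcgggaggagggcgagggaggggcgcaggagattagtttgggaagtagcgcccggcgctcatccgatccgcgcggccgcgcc
The windows of Col7a1, Col1a2, Col25a1 and Col5a3 each hold CCAAT, which the factor NF-Y reads, and GGGCGG, which Sp1 reads. Their CCAAT matches start 249, 109, 191 and 122 bases upstream, in that order of genes. The window of Col13a1 holds TATAA, which starts 237 bases upstream. Binding of a factor to these matches was not tested. Of 32851 windows of this length in the table, 33.8% held CCAAT, 32.7% held GGGCGG and 22.8% held TATAA. Among 38 windows of 35 collagens, 13 held CCAAT (34.2%), 22 held GGGCGG (57.9%) and 7 held TATAA (18.4%). TATAA matches on opposite strands can overlap, and CCAAT and GGGCGG can share letters on opposite strands. Members without an entry were Col12a1, Col14a1, Col1a1, Col22a1, Col26a1, Col2a1, Col4a3, Col5a2 and Col9a3.

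The fibrillar class comprised 11 genes, and none passed in any of the 4 comparisons. Col1a1 was at 641 and 776 CPM in female knockouts, 1014 and 753 CPM in male knockouts and 1154 and 1226 CPM in wild type. Its log2 fold change was -0.75 (adjusted p = 0.114) in female knockouts, -0.43 (adjusted p = 0.259) in male knockouts and -0.59 (adjusted p = 0.0783) in the mean of both, by edgeR's test. Without fko2, which leaves only the low-set library fko1 in female knockouts, the value in the mean of both was -0.68. Its partner chain Col1a2 was at 1220.3 and 1323 CPM in female knockouts, 1583 and 1360.4 CPM in male knockouts and 1724 and 1759 CPM in wild type. For both chains all knockout libraries lay below both wild-type libraries, which were close together. The log2 fold change of Col1a2 in the mean of both was -0.35 (adjusted p = 0.184 in edgeR's test).

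The knockouts were not apart from wild type for other fibrillar genes with many reads. Col3a1 was at 1635 and 1843 CPM in female knockouts, 1943 and 1551 CPM in male knockouts and 1608 and 1759 CPM in wild type, and the genotypes overlapped. Its log2 fold change in the mean of both knockouts was 0.05 ± 0.17 (SE), and that of Col5a2, a chain of type V collagen, which co-assembles with type I and limits fibril width, was -0.01 ± 0.14 (SE). Col5a3, a minor type V chain, was at 0.914 and 0.904 CPM in female knockouts, 1.23 and 1.27 CPM in male knockouts and 1.84 and 1.99 CPM in wild type, few reads in all, with every knockout library again below wild type. Its log2 fold change in the mean of both was -0.84 (adjusted p = 0.105, edgeR). Col5a3 was chosen after its values were seen.

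**Figure D2:**
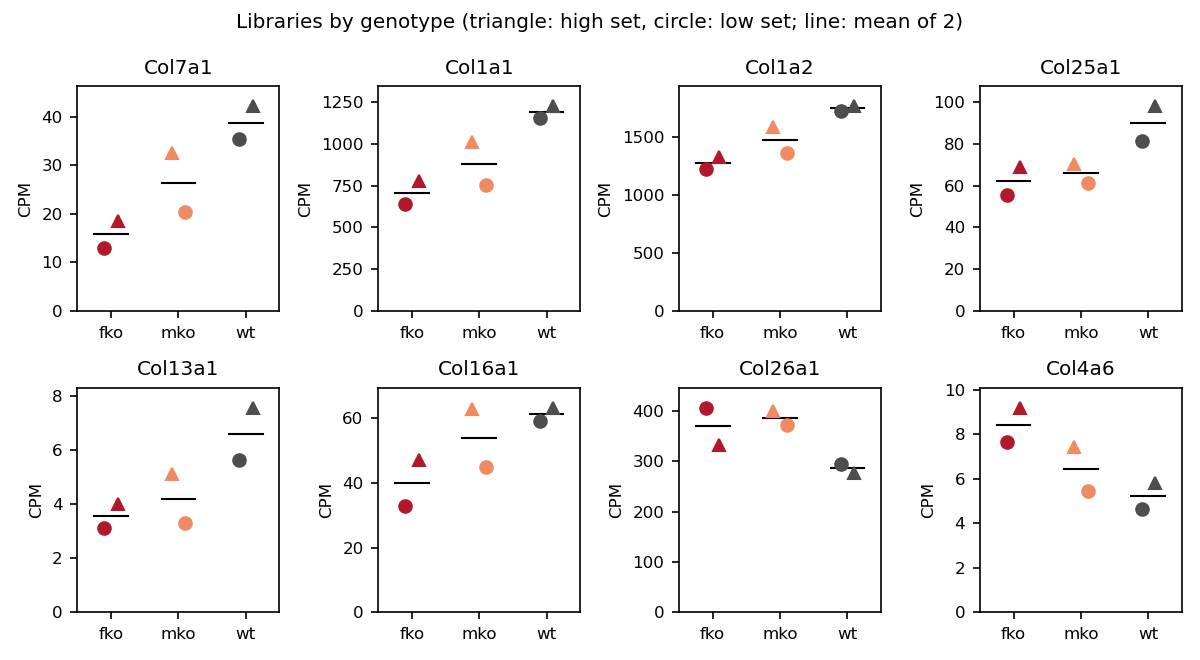
CPM of 8 collagen genes in the female knockout (fko), male knockout (mko) and wild-type (wt) libraries, with a line at the mean of each pair of libraries, a triangle for the high-set library and a circle for the low-set library. All knockout points lie below both wild-type points for Col7a1, Col1a1, Col1a2, Col25a1 and Col13a1, and above them for Col26a1.

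No collagen of cartilage matrix passed. Col2a1 was at 760.0 and 952 CPM in female knockouts, 800.0 and 617 CPM in male knockouts and 752 and 701 CPM in wild type. Col9a1, a chain of type IX collagen on the surface of type II fibrils, was at 92.8 and 147 CPM in female knockouts, 126 and 94.6 CPM in male knockouts and 109 and 77.4 CPM in wild type. Both female knockout libraries lay above both wild-type libraries for Col2a1, whereas the male knockouts lay on either side of wild type. For Col9a1 each knockout genotype overlapped wild type, with wt2 lowest. Within the high set the log2 difference of Col9a1 was 0.92 in fko and 0.70 in mko over wt, whereas within the low set it was -0.24 and -0.21. Col9a3, the partner chain of Col9a1, gave 1.02 and 0.64 in the high set against -0.22 and -0.16 in the low set. Each of these is 1 library against 1, with no test. Chondrocyte markers summed over 12 genes to 278 and 424 CPM in female knockouts, 336 and 289 CPM in male knockouts and 280.4 and 219 CPM in wild type. Of 9 tested, Hapln1, which links hyaluronan to aggrecan, rose (log2 fold change 1.30, adjusted p = 0.0297) and Cytl1, a secreted protein of cartilage, fell (-1.63, adjusted p = 0.0349) in the mean of both knockouts by edgeR's test, where 5.11% of all genes passed. Of those 9, 7 had positive and 2 negative log2 fold changes, with a median of 0.76, against 0.01 for all genes. Cytl1 had few reads, at 0.904 to 6.21 CPM. The part of these markers in the values of the cartilage collagens was not tested.

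FACIT collagens numbered 9, and none passed in any comparison. Col12a1, which decorates type I fibrils, was at 249 and 309 CPM in female knockouts, 331 and 234 CPM in male knockouts and 284 and 318 CPM in wild type, with the genotypes overlapping. Col9a2, the remaining type IX chain, was at 69.5 and 98.3 CPM in female knockouts, 92.7 and 85.7 CPM in male knockouts and 111 and 86.8 CPM in wild type. Its log2 fold change in the mean of both was -0.19 ± 0.16 (SE), opposite in sign to the 0.30 ± 0.22 of Col9a1, and neither passed.

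The network class held 9 genes, of which 7 were tested and none passed. Col4a1 and Col4a2, the chains of the common type IV collagen of basement membranes, had log2 fold changes of -0.22 ± 0.15 and -0.14 ± 0.14 (SE) in the mean of both knockouts. Col4a1 was at 339 and 355 CPM in female knockouts, 361 and 291 CPM in male knockouts and 342 and 441 CPM in wild type, and wt2 stood above the rest. Col4a2 was at 259 and 260.5 CPM in female knockouts, 253 and 218 CPM in male knockouts and 242 and 305 CPM in wild type, with the same library highest. Col8a2, a short-chain collagen of Descemet's membrane, was at 117 and 119.9 CPM in female knockouts, 123 and 95.7 CPM in male knockouts and 101 and 103 CPM in wild type. Both female knockout libraries lay above both wild-type libraries, and the male knockouts lay on either side of them.

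Type IV collagen has a pair of chains encoded on the X chromosome, Col4a5 and Col4a6. Col4a6 was at 7.64 and 9.17 CPM in female knockouts, 7.43 and 5.44 CPM in male knockouts and 4.62 and 5.83 CPM in wild type. Both female knockout libraries, the only libraries from females, lay above both wild-type libraries, and mko2 lay between the wild-type libraries. The log2 fold change of Col4a6 was 0.69 (adjusted p = 0.188) in female knockouts, 0.30 in male knockouts and 0.49 (adjusted p = 0.184) in the mean of both, by edgeR's test. Col4a5 was at 28.4 and 35.3 CPM in female knockouts, 34.5 and 26.6 CPM in male knockouts and 27.1 and 31.8 CPM in wild type, overlapping, with a log2 fold change of 0.08 ± 0.16 (SE) in the mean of both.

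The transmembrane class held 4 genes, and none passed. Col25a1, which in mice is needed for motor axons to innervate muscle, was at 55.2 and 68.8 CPM in female knockouts, 70.4 and 61.3 CPM in male knockouts and 81.5 and 97.8 CPM in wild type. Its log2 fold change was -0.53 in female and -0.45 in male knockouts, and -0.49 (SE 0.14, adjusted p = 0.0763 in edgeR's test) in the mean of both. Of the neuron markers, 3 of 10 (Th, Elavl3 and Syt1) fell in the mean of both knockouts by edgeR's test, where 5.11% of all genes passed. The list summed over 10 genes to 1329 and 1392 CPM in female knockouts, 953 and 1651 CPM in male knockouts and 1581 and 1681 CPM in wild type, and its part in the values of Col25a1 was not tested.

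Col13a1, which sits at the neuromuscular junction, had few reads. It was at 3.13 and 4.01 CPM in female knockouts, 5.11 and 3.29 CPM in male knockouts and 5.64 and 7.56 CPM in wild type, all knockouts below wild type, with a log2 fold change of -0.77 (adjusted p = 0.101, edgeR) in the mean of both. Col23a1, at 87.7 and 86.4 CPM in female knockouts, 94.2 and 74.1 CPM in male knockouts and 82.0 and 85.9 CPM in wild type, had both female knockout libraries just above wild type and the male knockouts on either side. Col17a1, a hemidesmosome protein of epithelia, had at most 15 reads in any library.

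Outside the 4 classes, type VI collagen, which forms beaded filaments around cells, had 3 chains with many reads. The log2 fold change in the mean of both knockouts was 0.01 ± 0.14 for Col6a1, 0.04 ± 0.14 for Col6a2 and -0.39 ± 0.19 for Col6a3 (SE), none of which passed. Col6a3 was at 126 and 182 CPM in female knockouts, 229 and 153 CPM in male knockouts and 215 and 235 CPM in wild type, and mko1 lay between the wild-type libraries. Col6a2 was at 232 and 232 CPM in female knockouts, 264 and 215 CPM in male knockouts and 254 and 206 CPM in wild type.

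Col26a1 had its higher values in the knockouts. It was at 406 and 332 CPM in female knockouts, 399.7 and 372 CPM in male knockouts and 294 and 277 CPM in wild type. All knockout libraries lay above both wild-type libraries. The log2 fold change was 0.37 in female and 0.43 in male knockouts and 0.40 (SE 0.13, adjusted p = 0.116 in edgeR's test) in the mean of both, which did not pass.

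**Figure D3:**
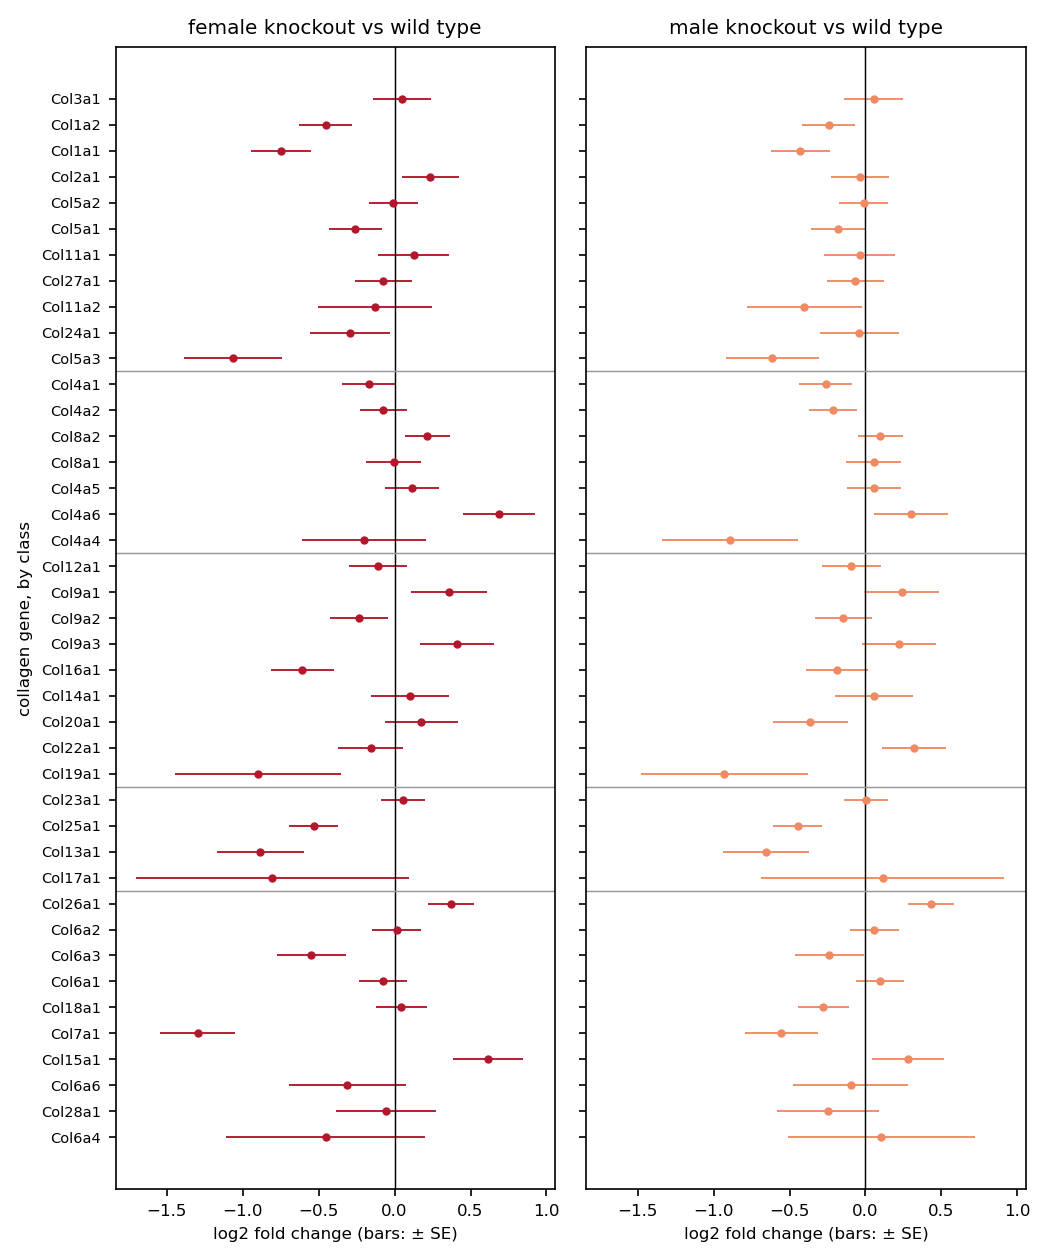
Log2 fold changes of the 41 tested collagen genes in female and in male knockouts against wild type from edgeR, with bars of 1 SE on each side and grey lines between classes. Col7a1 lies farthest left in female knockouts at -1.30, and no point in either panel passed the test at an adjusted p of 0.05.

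Ratios between chains that assemble into one molecule compare genes within a library, so they do not depend on its depth. The log2 ratio of Col1a1 to Col1a2 counts was -0.93 and -0.77 in female knockouts, -0.64 and -0.85 in male knockouts and -0.58 and -0.52 in wild type. All knockout values lay below both wild-type values, with a mean difference of -0.25. The ratio of Col6a3 to Col6a1 was -0.33 and 0.03 in female knockouts, 0.12 and -0.12 in male knockouts and 0.19 and 0.51 in wild type, a mean difference of -0.42.

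For Col9a2 to Col9a1 the log2 ratio was -0.42 and -0.58 in female knockouts, -0.44 and -0.14 in male knockouts and 0.02 and 0.17 in wild type, a mean difference of -0.49. Knockout and wild-type values again stayed apart, as they did for Col6a3 to Col6a1. The ratios of Col5a1 to Col5a2 and of Col11a2 to Col11a1 were lower in the knockouts by the same reading, with mean differences of -0.22 and -0.38. By contrast, the pairs Col4a1 and Col4a2, Col6a1 and Col6a2, Col8a1 and Col8a2, and Col9a1 and Col9a3 had at least 1 knockout value at or above a wild-type value, with mean differences between -0.11 and -0.03. In an exact two-sided permutation test of 4 libraries against 2, each separated pair reached p = 0.133, the smallest that this design allows. Among single genes, 20.1% of all tested had all 4 knockout libraries below both wild-type libraries, and 18.8% had them above. The share of separated ratios over other pairs of genes was not computed, so the separation is not read as particular to these chains.

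The ratio of the X-linked Col4a6 to Col4a5 was looked at after its values had been seen. It was -1.89 and -1.94 in female knockouts, -2.21 and -2.29 in male knockouts and -2.55 and -2.45 in wild type on the log2 scale. The 3 groups lay in separate ranges. Only the female knockouts were female, so sex and genotype cannot be told apart where they differ from the other groups. The mean difference between knockouts and wild type was 0.41.

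**Figure D4:**
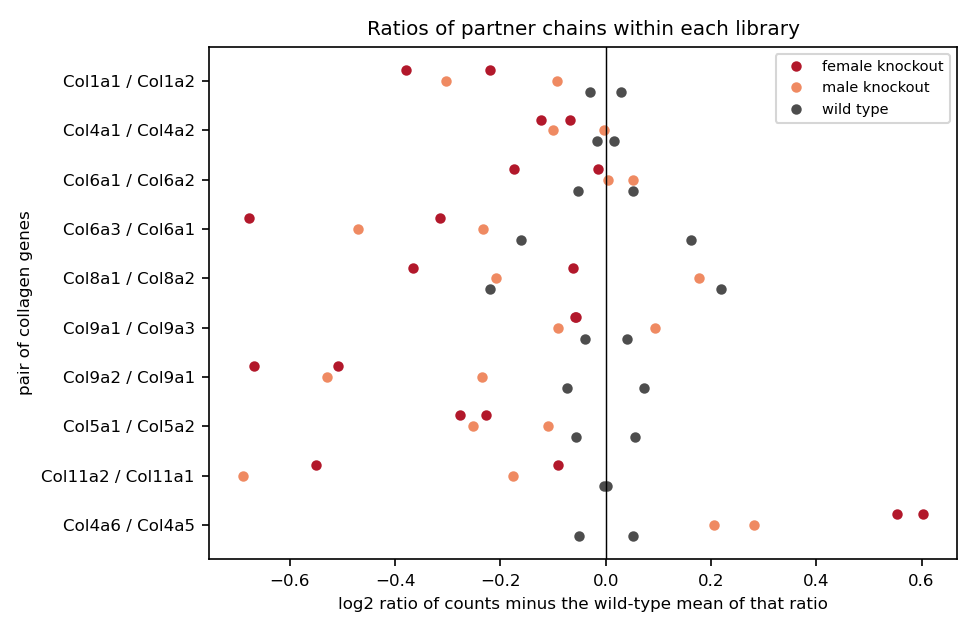
Log2 ratio of counts of 2 collagen chains within each library, minus the wild-type mean of that ratio, for 10 pairs of genes; points are libraries, with female knockouts above male knockouts above wild type in each row. Knockout points lie left of both wild-type points for Col1a1 to Col1a2, Col6a3 to Col6a1, Col9a2 to Col9a1, Col5a1 to Col5a2 and Col11a2 to Col11a1, and right of them for Col4a6 to Col4a5.

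Many collagens were higher in the high-set library of each genotype. In 24 of 41 tested collagens (58.5%) the high-set library exceeded the low-set library in all 3 genotypes, against 25.8% of all genes. In none was it lower in all 3, against 26.9% of all genes. The median log2 difference between the high-set and the low-set library over collagens was 0.33 in female knockouts, 0.36 in male knockouts and 0.13 in wild type, while over all genes it was 0.00, -0.01 and 0.01.

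With the set as a term in edgeR's fit, 10 of 41 collagens (24.4%) had a set coefficient past the threshold, all higher in the high set, against 14.4% of all genes. They were Col11a1, Col6a3, Col7a1, Col11a2, Col12a1, Col25a1, Col16a1, Col27a1, Col6a6 and Col4a5, with log2 differences between 0.26 for Col25a1 and 0.75 for Col11a2 and adjusted p between 0.0218 and 0.0415 in edgeR's test. Col11a2, which joins type II fibrils in cartilage, was at 32.7 CPM in fko2 and 15.5 CPM in fko1, at 27.1 CPM in mko1 and 12.9 CPM in mko2, and at 27.7 CPM in wt2 and 25.1 CPM in wt1. Its set difference was wide in both knockouts and narrow in wild type. The sets were defined from the libraries themselves, and the labels name no batch.

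**Figure D5:**
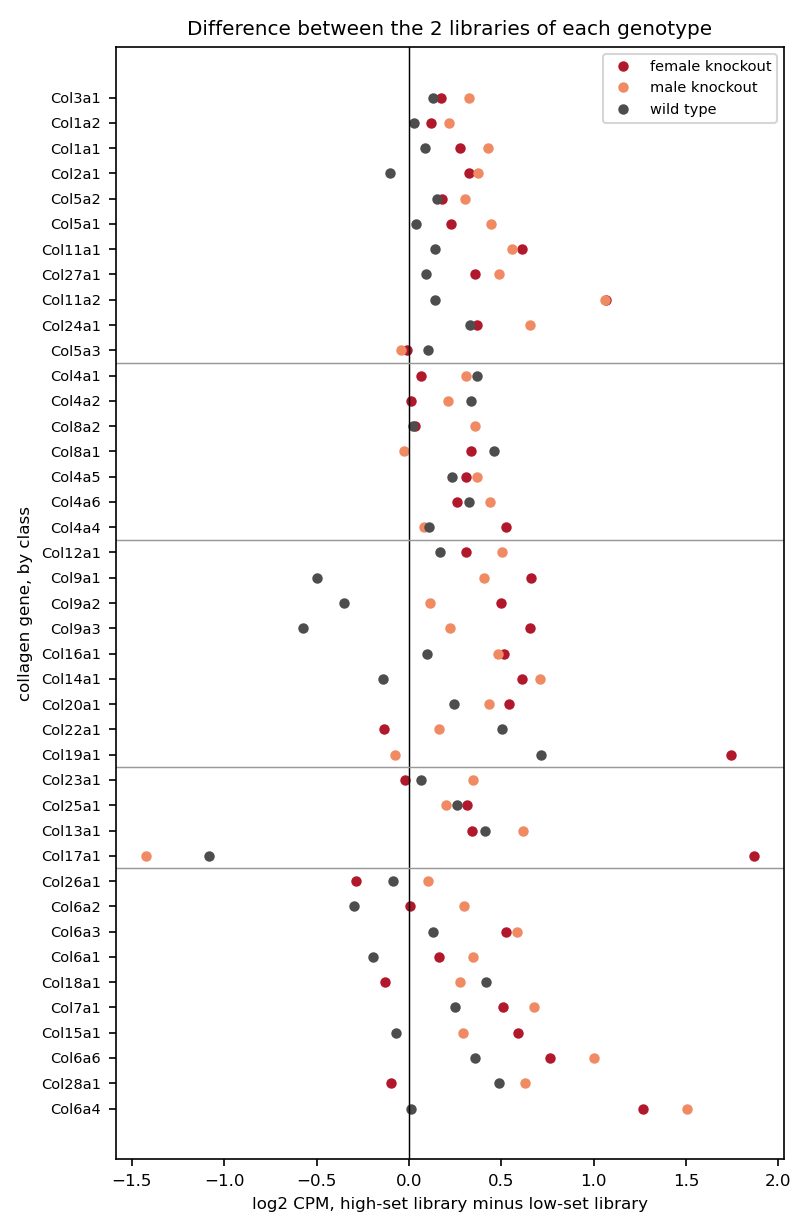
Log2 CPM of the high-set library minus that of the low-set library for the 41 tested collagen genes, with 1 point for each genotype. Most points lie right of 0, and Col9a1, Col9a2 and Col9a3 lie left of 0 in wild type and right of 0 in both knockouts.

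With the same term the standard errors were smaller (0.11 in place of 0.21 for Col7a1 in the mean of both knockouts), and more collagens passed between genotypes, as did more genes in general. In the mean of both knockouts, 10 of 41 collagens passed (24.4%), 2 higher and 8 lower, against 32.6% of all genes. In female knockouts against wild type 11 passed (26.8%), 3 higher and 8 lower, against 23.3% of all genes, and in male knockouts 5 passed (12.2%), 1 higher and 4 lower, against 24.7%. Between female and male knockouts 0 passed, against 0.0482% of all genes. The higher genes in the mean of both were Col26a1 (log2 fold change 0.40, adjusted p = 0.00904) and Col4a6 (0.49, adjusted p = 0.0371) by edgeR's test with the set term. Among the 8 lower ones were Col7a1 (-0.95, adjusted p = 0.000908), Col1a1 (-0.60, adjusted p = 0.00176), Col25a1 (-0.49, adjusted p = 0.00198) and Col1a2 (-0.35, adjusted p = 0.00923) in that fit.

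Within each set, knockout minus wild type compares 1 library with 1 and allows no test. Col1a1 was lower by this measure in both sets, with log2 differences of -0.66 in the high and -0.85 in the low set for fko and -0.27 and -0.62 for mko. Col7a1 gave -1.18 and -1.44 for fko and -0.37 and -0.80 for mko in the same order. Col25a1 gave -0.51 and -0.56 for fko and -0.47 and -0.41 for mko. All 4 values of Col1a2, Col13a1, Col5a3, Col6a3, Col16a1, Col19a1 and Col4a1 were negative too, but some were near 0. Col4a1 gave -0.009 for fko in the low set, and Col16a1 and Col6a3 gave -0.011 and -0.036 for mko in the high set. Col5a3 and Col19a1 had few reads. Col26a1 gave 0.26 and 0.46 for fko and 0.53 and 0.34 for mko, all above 0, as were all 4 values of Col15a1 and Col4a6. Where every knockout library lies on the same side of both wild-type libraries, the 4 signs follow from that order. The share of all genes with 4 like signs was not computed. Col11a1, which joins type II fibrils in cartilage, differed in sign between sets and gave 0.33 in the high and -0.14 in the low set for fko, and 0.15 and -0.27 for mko.

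Most enzymes and chaperones that fold collagen had positive estimates, and none passed. Of 20 tested genes for hydroxylation and folding, 6 had an unadjusted p under 0.05 in the mean of both knockouts by edgeR's test, where 26.1% of all genes did. Positive log2 fold changes were found in 19 of the 20, against 51.1% of all genes, with a median of 0.25 against 0.01 for all genes. Serpinh1, the collagen chaperone HSP47, was at 1353 and 1003 CPM in female knockouts, 1236 and 1106 CPM in male knockouts and 849 and 725 CPM in wild type. All knockout libraries lay above both wild-type libraries, and its log2 fold change was 0.58 (adjusted p = 0.0949, edgeR). Crtap, a subunit of the prolyl 3-hydroxylase complex, gave 0.47 (adjusted p = 0.0852) and P3h4 (Leprel4 in the table), another gene of collagen hydroxylation, 0.42 (adjusted p = 0.0977) in the same test. With the set term, 8 of the 20 passed as higher and 0 as lower, against 16.3% of all genes that passed as higher in that fit.

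Other genes of collagen biology gave single calls in the mean of both knockouts, where 5.11% of all genes tested passed. Among 8 collagen receptors tested, Ddr1, a receptor tyrosine kinase that binds collagen, fell, and none rose. It was at 55.8 and 69.1 CPM in female knockouts, 56.8 and 68.8 CPM in male knockouts and 121 and 134 CPM in wild type, and knockouts and wild type were far apart. Its log2 fold change was -1.03 in the mean of both (SE 0.13, adjusted p = 0.00647), and it passed in female (adjusted p = 0.0288) and in male knockouts (adjusted p = 0.0204) by edgeR's test. Of 9 genes for collagen degradation, Ctsk, the protease cathepsin K, fell (-1.17, adjusted p = 0.0233). Of 5 cross-linking enzymes Loxl1 fell (-0.59, adjusted p = 0.0416), and of 16 basement membrane partners Agrn, the proteoglycan agrin, fell (-0.71, adjusted p = 0.0290) in edgeR's test. Dcn, the proteoglycan decorin, which binds type I fibrils, rose (0.51, adjusted p = 0.0355) among 11 fibril-associated proteoglycans. None of 8 procollagen processing genes and none of 11 regulators of collagen transcription passed, where 1 and 3 had an unadjusted p under 0.05, as did 26.1% of all genes.

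Among marker lists, 1 of 8 tested osteoblast markers rose in the mean of both knockouts (Spp1, the bone matrix protein osteopontin, log2 fold change 2.00, adjusted p = 0.0255 in edgeR's test) and none fell. Of all genes tested, 5.11% passed in this comparison. Of 8 tendon and fibroblast markers only Dcn passed. Smooth muscle and pericyte markers had 2 of 10 higher (Rgs5 and Tagln) and 1 lower (Des), and 0 of 8 glial, 0 of 5 erythroid, 0 of 9 endothelial, 0 of 6 leukocyte and 0 of 6 cranial mesenchyme markers passed. Erythroid markers summed to 442 and 403 CPM in female knockouts, 322 and 1362 CPM in male knockouts and 514 and 310.1 CPM in wild type, with mko2 far above the rest. Their part in the collagen values was not tested.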

How the data were processed

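Gene counts per library were deposited by the authors as whole numbers, not normalized. The submitters' processing notes name Trimmomatic, TopHat2, SAMtools and HTSeq and the genome build mm9, with no strand setting, and the labels' protocols name a stranded KAPA mRNA kit. Rows naming no gene were left out of library sizes; reads assigned to no feature were 21.3% to 27.8%. Counts were fitted over all 6 libraries in edgeR 4.0.16 (R 4.3.3) with TMM factors, its low-count filter and 3 group means. Benjamini-Hochberg adjustment ran over 14521 genes with a threshold of 0.05. CPM used TMM library sizes, and plotted or within-set log2 CPM a prior count of 2. The fitting script was tested on simulated counts. Precision rests on 2 libraries per genotype. Alternatives were DESeq2 1.42.0, RLE factors, no filter, the replicate block, the set term, the compared groups alone and leaving out each library. Same-numbered libraries did not deviate together in every pair of groups. Members, classes and lists were chosen with earlier results of these data known; the set coefficient and within-set differences were added after seeing the data. Genes given full values were those past the threshold, the 3 with the highest mean CPM per class and X-linked type IV chains. Other collagens given values, such as Col2a1, Col5a2, Col5a3, Col6a1, Col9a3, Col11a1 and Col11a2, and those named in lists lie outside that rule and were chosen after their values were seen. Promoters came from RefSeq GRCm38.p6. Counts of overlapping genes, such as Col4a1 and Col4a2, may be uncertain. Chromatin files were not used here.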

Additional observations from a re-analysis of the deposited data

How the results depend on the processing

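The number of collagens passing moved with the processing in 3 of the 4 comparisons. In female knockouts against wild type 0 passed, against 2 with DESeq2 (3.46% of all genes) and 11 with the set term (23.3% of all genes). In male knockouts against wild type 0 passed, against 5 with the set term (24.7% of all genes). In the mean of both knockouts 1 passed, against 0 without a filter, 3 with DESeq2, 10 with the set term and 0 to 7 when 1 library was left out, 7 without fko2, 2 without wt1 and 0 without wt2 or mko2. Leaving out a library leaves 1 in its genotype, whose spread is then taken from the others. Between the knockouts 0 passed in each fit. With the replicate number as a block, 0 passed in the mean of both and Col7a1 had an adjusted p of 0.0525 in edgeR's test. Same-numbered libraries deviated together only for wild type and female knockouts (r = 0.43 across genes), against -0.24 for wild type and male knockouts and -0.23 between the knockouts, so the numbers do not pair the libraries.

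Of 389 recomputed log2 fold changes for 34 single results, 336 kept direction and call, 37 gained a call, 4 lost it and 12 changed sign. The sign changes came from leaving out 1 library and concerned values near 0 in the mean of both knockouts. Over those fits Col12a1 ran from -0.24 to 0.015, Col23a1 from -0.062 to 0.11, Col3a1 from -0.034 to 0.13, Col4a2 from -0.30 to 0.015, Col4a5 from -0.024 to 0.19 and Col6a2 from -0.12 to 0.19. The cause was not tested. Low-count members such as Col5a3, Col17a1 and Col19a1 are limited by depth.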
